A study of Homo sapiens with 16 samples.

Results

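Transcript levels were compared between a pair of control small interfering RNAs (siRNAs), siControl.1 and siControl.2, in 2 human bladder cancer cell lines. The comparison takes the 8 control libraries of a set of 16, chosen by their siRNA label: 4 of siControl.1 and 4 of siControl.2, each with 2 libraries of RT112 and 2 of SCaBER. RT112 is described in the study as a luminal papillary line and SCaBER as a basal/squamous line. The other 8 libraries carry 1 of 2 siRNAs that target FOXA1, named siFOXA1.1 and siFOXA1.2, and the study pooled its controls. All cells were transfected with Lipofectamine RNAiMAX, at 10 nM of siRNA per the labels and 10 ng per the study's methods, and none of the 16 libraries is from untransfected cells, so neither control siRNA can be set against a baseline. RT112 grew in RPMI and SCaBER in DMEM, both with serum, so line and medium cannot be told apart. Nothing in the labels says that the libraries of a group came from separate cultures beyond their batch number, and the p-values measure the spread between these libraries.

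An siRNA is a short double-stranded RNA whose guide strand is loaded into an Argonaute protein and directs it to matching transcripts, which are then cleaved. Transcripts that pair with only the seed at the start of the guide can also be lowered, in the manner of a microRNA, and long or abundant double-stranded RNA can switch on interferon genes through sensors in the cytoplasm. Control siRNAs are designed to match no transcript, and they show what transfection and loading of the silencing machinery do without a target. The sequences of the 2 control siRNAs were not in the sources used here, so none is shown.

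The 8 libraries held 4528513 to 7604581 counts, and a count of 3, taken as the limit of detection in 1 library, equalled 0.394 to 0.662 CPM (a count divided by the total of its library and rescaled). Of 8 luminal markers, GATA3, PPARG, FOXA1, KRT8, KRT18, UPK2 and ELF3 were higher in every RT112 library than in every SCaBER library, and KRT20 was at 0 in all 8. Among 8 basal markers, KRT5, KRT6A, KRT14, DSG3 and CDH3 were higher in every SCaBER library, while KRT16, VIM and TP63 overlapped between the lines, so each line carried most, and not all, of the markers of its name. Of the markers of other cell types, 5 of 10 for fibroblasts (COL3A1 and PDGFRA among them), 3 of 8 for endothelium (KDR and TEK among them) and 7 of 11 for leukocytes (PTPRC and CD3E among them) were at 0 in all 8 libraries. Others were present, with LUM at 73.8 to 129.9 CPM and ESAM at 6.12 to 12.8 CPM in RT112, and COL1A1 at 5.03 to 15.1 CPM in SCaBER. The nearest profile was that of the partner with the same line and siRNA for 7 of the 8 libraries, whereas SCaBER siControl.1 replicate 1 was nearest to SCaBER siControl.2 replicate 2. The 2 SCaBER siControl.1 libraries also differed most from each other, with a chi-square of 23.4 per degree of freedom against 8.56 to 11.6 in the other 3 groups.

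With the lines together and cell line as a covariate, 113 of 14036 genes tested passed an adjusted p of 0.05, which is 0.805%. Under siControl.1, 62 genes were higher (0.442%) and 51 were lower (0.363%). The median size of their log2 difference was 0.98, against 0.279 over all genes tested, and 54 of the 113 differed by more than 1 on the log2 scale. Of the 113, 110 were separated without overlap in each line and in the same direction, against 10.3% of all genes tested. The 113 had been chosen by a test on these same libraries, so their sizes and separation are a description. An unadjusted p under 0.05 was reached by 1501 genes. Without RT112 siControl.2 replicate 1 the number of genes that passed was 71, and without SCaBER siControl.1 replicate 2 it was 219. Each batch alone left 1 residual degree of freedom. By edgeR the batch 1 libraries alone gave 48 genes, with 969 of 14478 at an unadjusted p under 0.05. The batch 2 libraries alone gave 0 by edgeR, with 485 of 14291 at an unadjusted p under 0.05. Why the batches differed was not tested.

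PSCA, HPGD and CLDN1 were examined first. PSCA, a surface antigen of prostate stem cells that luminal urothelial cells also express, was at 263 and 303 CPM under siControl.1 in RT112 and at 103 and 77.4 CPM under siControl.2. In SCaBER it was at 1.5 and 0 CPM under siControl.1 and at 0 in both siControl.2 libraries. The RT112 groups did not overlap, while SCaBER gave almost no PSCA counts under either siRNA. The log2 difference in RT112 was 1.70 ± 0.31 (SE, adjusted p = 0.0233), a ratio of mean CPM of 3.13, and over both lines it was 1.77 ± 0.33 (adjusted p = 0.0207).

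HPGD encodes the enzyme that starts the breakdown of prostaglandins. In RT112 it was at 230.3 and 226 CPM under siControl.1 and at 138 and 112 CPM under siControl.2. In SCaBER its level lay between 0 and 1.30 CPM. HPGD was thus separated in RT112 by siRNA and near the limit of detection in SCaBER. It did not pass in this comparison. The log2 difference was 0.92 ± 0.26 in RT112 (adjusted p = 0.154) and 0.70 ± 0.31 over both lines (adjusted p = 0.440).

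CLDN1, a claudin of tight junctions (ENSG00000163347, chromosome 3, 190305707 to 190322446 in GRCh38.p14), was at 60.2 and 53.8 CPM under siControl.1 and at 118 and 136 CPM under siControl.2 in RT112. In SCaBER it was at 55.7 and 43.2 CPM against 132 and 100.5 CPM. CLDN1 was therefore lower under siControl.1 in each line and passed in each, with log2 differences of -1.10 ± 0.22 in RT112 (adjusted p = 0.0319) and -1.25 ± 0.22 in SCaBER (adjusted p = 0.0232). Over both lines it was 2.25-fold higher under siControl.2 (log2 difference -1.17 ± 0.16, adjusted p = 0.00188). FOXA1 itself was at 35.0 and 29.4 against 18.2 and 28.4 CPM in RT112 and at 0.499 and 0.623 against 2.43 and 1.99 CPM in SCaBER. FOXA1, a pioneer factor of luminal cells, did not pass (log2 difference -0.23 ± 0.44, adjusted p = 0.924).

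The 15 largest rises under siControl.1 ran from a log2 difference of 2.27 (LMLN) to 1.33 (LAD1). LMLN, a metallopeptidase of the leishmanolysin family, was at 41.7 and 47.6 CPM against 7.19 and 14.6 CPM in RT112, and at 19.0 and 23.8 CPM against 4.38 and 3.09 CPM in SCaBER. Its 4 siControl.1 libraries all lay above the 4 siControl.2 libraries, a 4.82-fold difference over both lines (adjusted p = 0.00163). S100A8, a calcium-binding protein of inflamed and squamous epithelium, was at 311 and 269.8 CPM against 35.7 and 36.6 CPM in RT112. In SCaBER S100A8 was at 56.7 and 23.7 CPM against 23.0 and 9.94 CPM, so the lower siControl.1 library was close to the higher siControl.2 library. The ratio of means was 8.05 in RT112 (adjusted p = 0.00134) and 2.44 in SCaBER (adjusted p = 0.261). JDP2, a repressor of AP-1, was at 28.8 and 29.4 against 4.92 and 5.56 CPM in RT112 and at 16.0 and 17.3 against 3.89 and 5.52 CPM in SCaBER.

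Several of these genes gave tight and non-overlapping pairs at moderate or high counts. SQOR, which oxidises hydrogen sulfide in mitochondria, was at 20.3 and 21.0 against 4.26 and 4.86 CPM in RT112, and at 103 and 118 against 29.4 and 35.3 CPM in SCaBER, 3.91-fold higher over both lines (adjusted p = 2.12e-04). SKAP2, an adaptor of Src-family kinases, was at 196 and 210.2 against 51.9 and 53.2 CPM in RT112 and at 112 and 123 against 44.9 and 46.6 CPM in SCaBER. MPRIP, which targets myosin phosphatase to actin fibres (chromosome 17, 17042457 to 17192643), was at 492 and 477 against 181 and 180.4 CPM in RT112 and at 127 and 106 against 45.1 and 39.1 CPM in SCaBER. MPRIP shared the smallest adjusted p over both lines, 5.77e-05, with a log2 difference of 1.47 ± 0.12. DDAH1, which degrades methylarginines, was 2.43-fold higher by mean CPM in RT112 and 4.42-fold higher in SCaBER, and passed in each line.

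The other rises were of genes with varied roles. BCL2L11 encodes the pro-apoptotic protein BIM and had a log2 difference of 1.48 ± 0.27 (adjusted p = 0.0195). BTN3A1, a butyrophilin recognised by gamma delta T cells, had 1.55 ± 0.30 (adjusted p = 0.0272), and SLC17A5, the lysosomal sialic acid exporter, had 1.51 ± 0.22 (adjusted p = 0.00421). LAD1, an anchoring-filament protein of the basement membrane, was at 179 and 168 against 64.5 and 53.9 CPM in RT112 and at 261 and 187 against 116 and 97.6 CPM in SCaBER. LRRC1 and SDCBP2 rose by 1.87 and 1.49 on the log2 scale over both lines, and neither passed in a single line. MX2 and INHBA, the remaining members, are given with their gene groups.

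**Figure D1:**
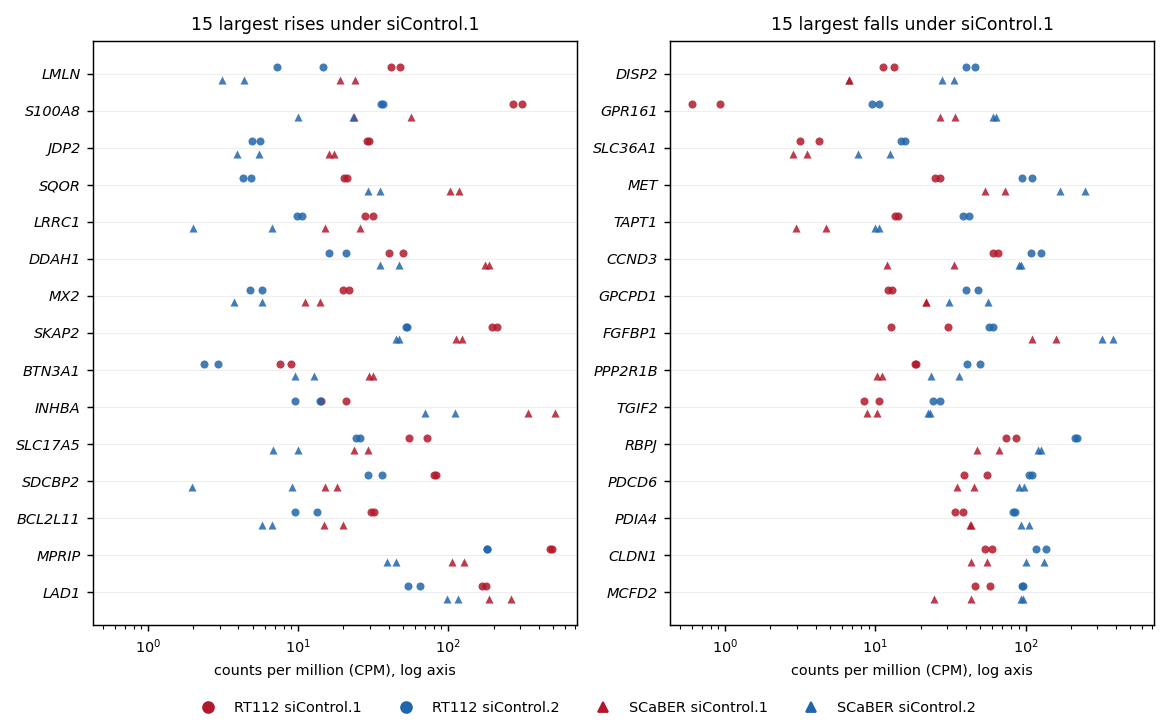
CPM (log axis) of the 15 genes with the largest rises and the 15 with the largest falls under siControl.1 in both lines together, 1 point per library, circles for RT112 and triangles for SCaBER, red for siControl.1 and blue for siControl.2. Within a line the red and blue points do not overlap, and for S100A8 and INHBA 1 red point lies next to a blue one.

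The 15 largest falls ran from -1.97 (DISP2) to -1.15 (MCFD2). MET, the receptor of hepatocyte growth factor (ENSG00000105976, chromosome 7, 116672196 to 116798377), was at 26.8 and 24.9 CPM under siControl.1 against 109.6 and 95.3 CPM under siControl.2 in RT112. In SCaBER MET was at 73.5 and 53.8 CPM against 169 and 251 CPM. The groups were separate in each line, with a 3.96-fold higher mean under siControl.2 in RT112 and 3.30-fold in SCaBER, and the adjusted p over both lines was 1.13e-04. DISP2, a relative of the protein that releases hedgehog ligands, was at 13.3 and 11.2 against 45.8 and 40.2 CPM in RT112 and at 6.66 and 6.70 against 33.4 and 27.6 CPM in SCaBER. RBPJ, the DNA-binding partner of Notch, was at 87.1 and 74.0 against 214 and 222 CPM in RT112 and at 66.2 and 47.2 against 121 and 127 CPM in SCaBER (log2 difference -1.26 ± 0.15, adjusted p = 7.64e-04).

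GPR161, a ciliary receptor that restrains hedgehog signalling, showed the least even fall. It was at 0.92 and 0.604 against 9.45 and 10.6 CPM in RT112, and at 26.8 and 33.7 against 63.8 and 60.3 CPM in SCaBER. It passed in RT112 (adjusted p = 0.00134) and missed the threshold in SCaBER (adjusted p = 0.242). CCND3, a D-type cyclin, was at 66.0 and 60.7 against 109 and 127 CPM in RT112, and at 33.3 and 12.0 against 93.3 and 90.5 CPM in SCaBER, where its siControl.1 libraries differed most. FGFBP1, a carrier of fibroblast growth factors, had a log2 difference of -1.39 ± 0.21 (adjusted p = 0.00507), and PPP2R1B, a scaffold of protein phosphatase 2A, had -1.35 ± 0.23 (adjusted p = 0.0111). TGIF2, a co-repressor of TGF-beta signalling, had -1.31 ± 0.26 (adjusted p = 0.0289). SLC36A1, TAPT1, GPCPD1 and MCFD2 fell by 1.84, 1.46, 1.39 and 1.15 on the log2 scale. PDCD6, a calcium-binding protein of membrane traffic, was at 55.0 and 38.7 against 111 and 105 CPM in RT112 and at 34.9 and 45.0 against 98.2 and 90.5 CPM in SCaBER. SEMA6A was outside the rule for named genes, because it was at 0 in all 4 SCaBER libraries, and was chosen after its values were seen. Its level in RT112 was 20.1 and 15.4 CPM against 104 and 102 CPM (adjusted p over both lines 0.00466).

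HSP90AA1, YBX1, YBX3 and STMN1, abundant transcripts chosen after their values were seen, were separated in the same way. HSP90AA1, the inducible cytosolic HSP90 (chromosome 14, 102080742 to 102139749), was at 1824 and 1710.2 CPM against 4910.5 and 4127 CPM in RT112, and at 2598 and 2740.1 CPM against 5159.7 and 5243 CPM in SCaBER. It was 2.20-fold higher under siControl.2 over both lines (log2 difference -1.14 ± 0.10, adjusted p = 5.77e-05). YBX1 and YBX3, related RNA-binding proteins with a cold-shock domain, moved in opposite directions, with log2 differences of -0.81 ± 0.11 (adjusted p = 0.00230) and 0.98 ± 0.11 (adjusted p = 3.98e-04). STMN1, which destabilises microtubules, was at 265 and 213 against 646 and 691 CPM in RT112 and at 330.5 and 249 against 483 and 541 CPM in SCaBER (log2 difference -1.13 ± 0.15, adjusted p = 0.00163).

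In RT112 alone 101 genes passed (0.72%), 51 higher (0.363%) and 50 lower (0.356%) under siControl.1. In SCaBER alone 48 passed (0.342%), 25 higher (0.178%) and 23 lower (0.164%). The pairs of libraries did not overlap in 42.9% of all genes tested in RT112 and in 35.9% in SCaBER, so separation within 1 line was common. With the batch replicate number as a block, 159 passed in RT112 and 80 in SCaBER. A set of 21 genes passed in each line alone, all in the same direction, which is 20.8% of the RT112 genes and 43.8% of the SCaBER genes. Of the 113 genes of the joint comparison, 56 also passed in RT112, 32 in SCaBER and 46 in neither line alone. The SCaBER count was 489 without SCaBER siControl.1 replicate 1, 91 without SCaBER siControl.1 replicate 2, 79 without RT112 siControl.1 replicate 2 and 75 without SCaBER siControl.2 replicate 2. The RT112 count was 55 and 54 without RT112 siControl.2 replicate 1 and 2, 369 and 349 without SCaBER siControl.1 replicate 1 and 2, and 179 and 173 without SCaBER siControl.2 replicate 1 and 2. The lines shared 1 estimate of the spread, and the genes tested also changed, to 15360 to 15463.

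**Figure D2:**
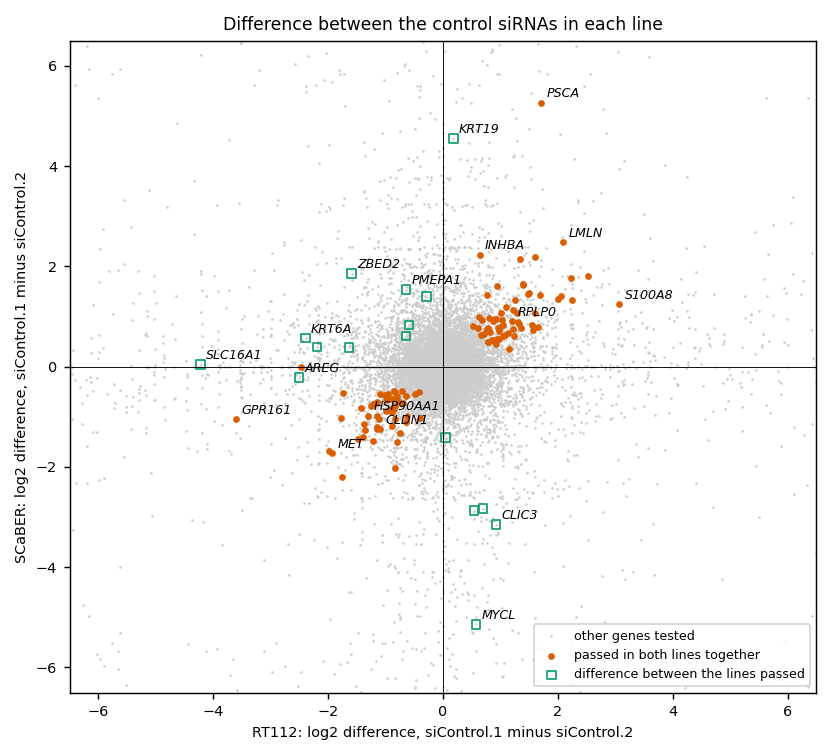
Log2 difference between the control siRNAs (siControl.1 minus siControl.2) in RT112 on the horizontal axis and in SCaBER on the vertical axis, 1 point per gene tested. Orange points are the 113 genes that passed in both lines together, of which 110 were separated in the same direction in each line. Some of them lie off the diagonal, such as PSCA, GPR161 and SEMA6A, which had 0 counts in SCaBER. Green squares are genes whose difference passed as different between the lines and lie off the diagonal, and 143 genes lie outside the plotted range.

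Among the largest differences in RT112, WNT4, a Wnt ligand, was at 11.8 and 16.0 CPM under siControl.1 and at 2.13 and 0 CPM under siControl.2. HR, a nuclear co-repressor, was at 3.68 and 8.91 CPM against 0.532 and 0.556 CPM. NRP1, a co-receptor of semaphorins and vascular endothelial growth factor, was at 0 in both siControl.1 libraries and at 9.45 and 2.64 CPM under siControl.2, which is at least 14.3-fold lower against a floor of 3 counts per library. GJA1, the gap junction protein connexin 43, was at 0.526 and 0 CPM against 8.92 and 7.23 CPM. In SCaBER these 4 genes lay between 3.75 and 90.5 CPM, and none of them passed there.

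In SCaBER, INHBA, which encodes the subunit of activin A, was at 339 and 515 CPM under siControl.1 against 70.4 and 110.0 CPM under siControl.2, a ratio of 4.74 (adjusted p = 0.00237). In RT112 INHBA was at 20.8 and 14.2 against 9.58 and 13.9 CPM (adjusted p = 0.473). TVP23B, a Golgi membrane protein, was at 0.166 and 0.156 CPM against 6.82 and 15.7 CPM in SCaBER. CLIC3, a chloride intracellular channel protein, was at 1.66 and 0.779 against 9.25 and 12.6 CPM, and REEP6, a membrane-shaping protein of the endoplasmic reticulum, at 0.832 and 2.34 against 10.9 and 11.9 CPM. All 4 passed in SCaBER, and the last 3 were lower under siControl.1.

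The difference between the control siRNAs was itself tested between the lines, and 17 genes passed (0.121%), 5 with a higher and 12 with a lower log2 difference in RT112 than in SCaBER. An unadjusted p under 0.05 was reached by 1216 genes, and with the replicate block 37 genes passed (p-values here are from edgeR). ZBED2, a transcription factor of keratinocytes that the study places in its basal network, went in opposite directions. It was at 5.79 and 7.70 CPM under siControl.1 against 15.6 and 26.8 CPM under siControl.2 in RT112, and at 57.2 and 66.7 against 18.2 and 15.7 CPM in SCaBER. The ZBED2 groups were separate in each line, and the difference of the log2 differences was -3.45 ± 0.50 (adjusted p = 0.0196). PMEPA1, a TGF-beta target that dampens the pathway, also had opposite signs, at 253 and 233 against 432 and 355 CPM in RT112 and at 149 and 179 against 41.7 and 71.1 CPM in SCaBER. CAV1, the caveolin of caveolae, and HEG1 and ZMYND8 had opposite signs as well, with interaction terms of -1.26 ± 0.22, -1.69 ± 0.29 and -1.42 ± 0.25. KRT6A, MYL9, MYCL, THBS1, CLIC3, REEP6 and ST3GAL1 were likewise separated in opposite directions in the lines. The opposite signs were not established line by line. ZBED2, PMEPA1 and HEG1 passed in SCaBER (adjusted p = 0.0334, 0.00675 and 0.00713) and missed the threshold in RT112 (0.0646, 0.237 and 0.699). CAV1 and ZMYND8 passed in neither line alone.

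As for ZBED2, the control siRNAs passed in 1 line and missed the threshold in the other in the 5 interaction genes described next. MYL9, MYCL, THBS1, CLIC3, REEP6 and ST3GAL1 did so too. SLC16A1, a lactate transporter, was at 0.526 and 0 against 5.06 and 6.53 CPM in RT112 and at 481 and 562 against 445 and 559 CPM in SCaBER. KRT6A, a keratin of activated and squamous epithelium, was at 1.84 and 1.36 against 8.92 and 8.89 CPM in RT112 and at 1299 and 895 against 884 and 581 CPM in SCaBER. Both genes were low in RT112 and abundant in SCaBER, and no RT112 library held more than 67 counts of either. AREG, a ligand of the EGF receptor, was at 3.55 and 2.87 against 14.5 and 23.9 CPM in RT112 and overlapped in SCaBER. PTGES, a prostaglandin E synthase, was at 515 and 511 against 508 and 526 CPM in RT112 and at 61.7 and 50.3 against 164 and 132 CPM in SCaBER. KRT19, a simple-epithelium keratin, passed because of SCaBER counts of 12 and 21 against 0 and 1, beside 20367 to 25675 counts in RT112. The number of genes that passed was 333 without SCaBER siControl.1 replicate 1, 52 without SCaBER siControl.1 replicate 2, 57 and 31 without SCaBER siControl.2 replicate 2 and 1, and 32 without RT112 siControl.1 replicate 2.

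**Figure D3:**
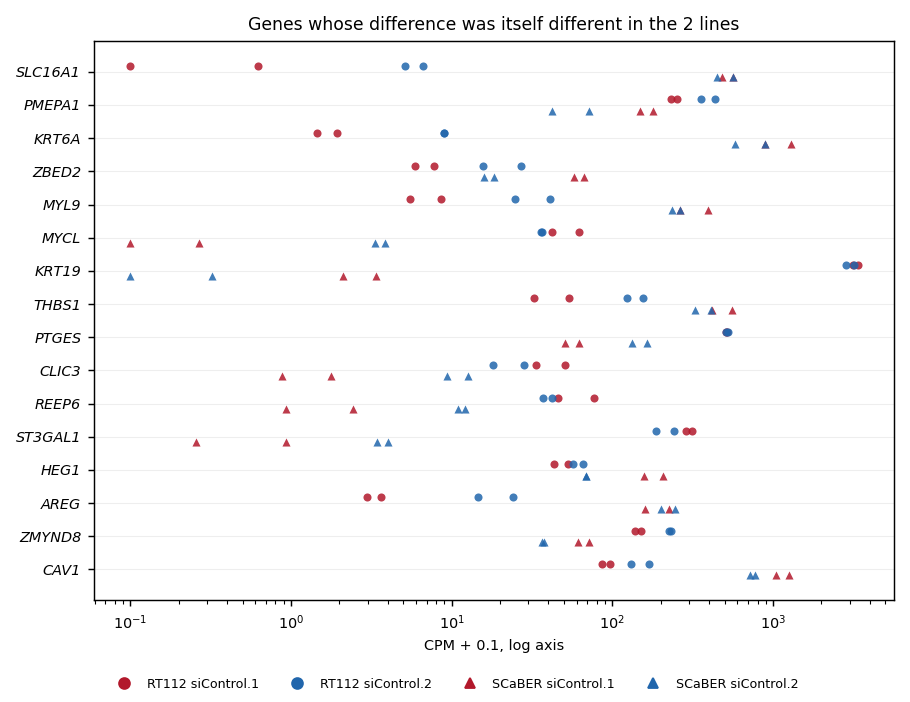
CPM + 0.1 (log axis) of 16 genes whose difference between the control siRNAs differed between the lines, 1 point per library, circles for RT112 and triangles for SCaBER, red for siControl.1 and blue for siControl.2. ZBED2, PMEPA1 and KRT6A, among others, have red points on opposite sides of blue in the 2 lines. SLC16A1 and KRT6A differ in RT112 at levels far under those of SCaBER.

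Of 29 lists of genes for pathways and cell types, 9 had a member that passed in both lines together and none had more than 2, beside a background of 0.805% of genes. The other 20 lists hold 385 tested genes, counted with repeats, of which 65 had an unadjusted p under 0.05 by edgeR and 10 passed by DESeq2. Over all 14036 genes in both lines together these counts were 1501 and 313. In the interferon response list 1 of 56 tested members passed. That gene was MX2, an interferon-induced GTPase, at 19.9 and 21.9 against 4.79 and 5.70 CPM in RT112 and at 11.1 and 14.0 against 3.73 and 5.74 CPM in SCaBER (log2 difference 1.74 ± 0.34, adjusted p = 0.0284). The median log2 difference of the list was 0.52 in SCaBER and 0.00 in RT112, beside a median of -0.00497 over all genes in both lines together. The summed level of the list in SCaBER was 7432 to 8493 CPM under siControl.1 and 5768 to 5915 CPM under siControl.2, and 0 members passed in SCaBER by edgeR, with 21 of 56 at an unadjusted p under 0.05 and 4 past the threshold by DESeq2. Over all 14036 genes in SCaBER these counts were 1427 and 173. In RT112 IFITM2, an interferon-induced membrane protein, passed in the other direction, lower under siControl.1 (adjusted p = 0.0459). OAS2, a sensor that activates RNase L, was at 106 and 62.2 against 29.7 and 26.5 CPM in SCaBER, with at most 1 count in any RT112 control library (adjusted p = 0.0530 over both lines). STAT2, an interferon signalling factor that the study followed, was at 33.9 and 20.7 against 16.4 and 14.4 CPM in SCaBER and at 13.3 and 18.1 against 10.8 and 11.5 CPM in RT112 (adjusted p = 0.379). Among 20 tested sensors of double-stranded RNA and DNA none passed by edgeR, 4 had an unadjusted p under 0.05 and 2, OAS2 and MAVS, passed by DESeq2. The 18 genes of the RNA interference machinery gave 0 by edgeR, 3 unadjusted and 0 by DESeq2. Counts of these last 2 lists are for both lines together, where all 14036 genes gave 113, 1501 and 313.

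Markers of epithelial identity gave few members that passed. Of 33 tested basal and squamous markers 2 passed by edgeR in both lines together, S100A8 and KRT6B, and 3 by DESeq2, these and DSC3. KRT6B was at 245 and 142 against 74.2 and 79.1 CPM in SCaBER and had at most 1 count in any RT112 library, so its joint call (adjusted p = 0.0345) came from SCaBER. Of 27 tested luminal markers 1 passed by edgeR in both lines together, PSCA, and 6 had an unadjusted p under 0.05. By DESeq2 3 passed, UPK2, a uroplakin of the urothelial plaque, UPK3B and GPX2, and PSCA was not among them. In RT112 alone PSCA, UPK2 and S100P passed by edgeR, the last 2 with log2 differences of 1.15 and 0.98 (adjusted p = 0.0356 and 0.0386). The summed level of the luminal list in RT112 was 13304 to 13896 CPM under siControl.1 and 10818 to 11051 CPM under siControl.2, and in SCaBER the ranges overlapped, at 1293 to 1582 and 1370 to 1556 CPM. In RT112 alone 3 basal and squamous markers passed. S100A8 and S100A9 were higher under siControl.1 (adjusted p = 0.00134 and 0.00329), and KRT6A was lower (adjusted p = 0.00699). In SCaBER alone 0 of the 33 passed by edgeR, 11 had an unadjusted p under 0.05 and 5 passed by DESeq2. Over all 14036 genes in SCaBER the last 2 counts were 1427 and 173. The summed level of the basal list was 11514 to 14549 against 9791 to 10493 CPM in SCaBER, and the ranges overlapped in RT112. Its median log2 difference was 0.38 in SCaBER and -0.11 in RT112. Of 23 tested claudin and tight-junction genes CLDN1 alone passed. Among 18 luminal and 14 basal transcription factors and 21 cadherin and desmosome genes none passed by edgeR in both lines together. An unadjusted p under 0.05 was reached by 4, 2 and 4 of them. By DESeq2 0, 1 (FOSL1) and 1 (DSC3) passed. The summed level of the cadherin and desmosome list was 2771 to 2832 against 3248 to 3255 CPM in RT112. In SCaBER it was 4295 to 4340 against 3474 to 3822 CPM.

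Of 27 tested mesenchymal genes 2 passed in RT112, both lower under siControl.1. They were THBS1, a matrix glycoprotein, at 32.5 and 53.8 against 123 and 156 CPM, and AXL, a receptor tyrosine kinase, with a log2 difference of -1.51 (adjusted p = 0.0206). Their summed level in RT112 was 375 to 421 CPM against 700.5 to 747 CPM, and in SCaBER it was 2570 to 2812 CPM against 1931 to 2287 CPM. The list median was -0.35 in RT112 and 0.33 in SCaBER. With genes at 0 under 1 siRNA set to their bound against 3 counts, or left out where both were at the floor, the medians were -0.91 over 20 genes and 0.36 over 26. Summed fibroblast markers, LUM and COL1A1 in the main, moved alongside, at 85.2 to 90.7 against 113 to 137 CPM in RT112 and 25.6 to 38.8 against 11.2 to 11.7 CPM in SCaBER, with COL3A1, DCN, PDGFRA, THY1 and POSTN at 0, and their part in the result was not tested. In bulk libraries fewer cells of a type and less RNA per cell cannot be told apart. Summed endothelial markers were at 26.2 to 40.2 against 13.9 to 20.6 CPM in RT112 and 0.156 to 2.87 CPM in SCaBER, and leukocyte markers at 1.11 to 13.7 CPM.

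**Figure D4:**
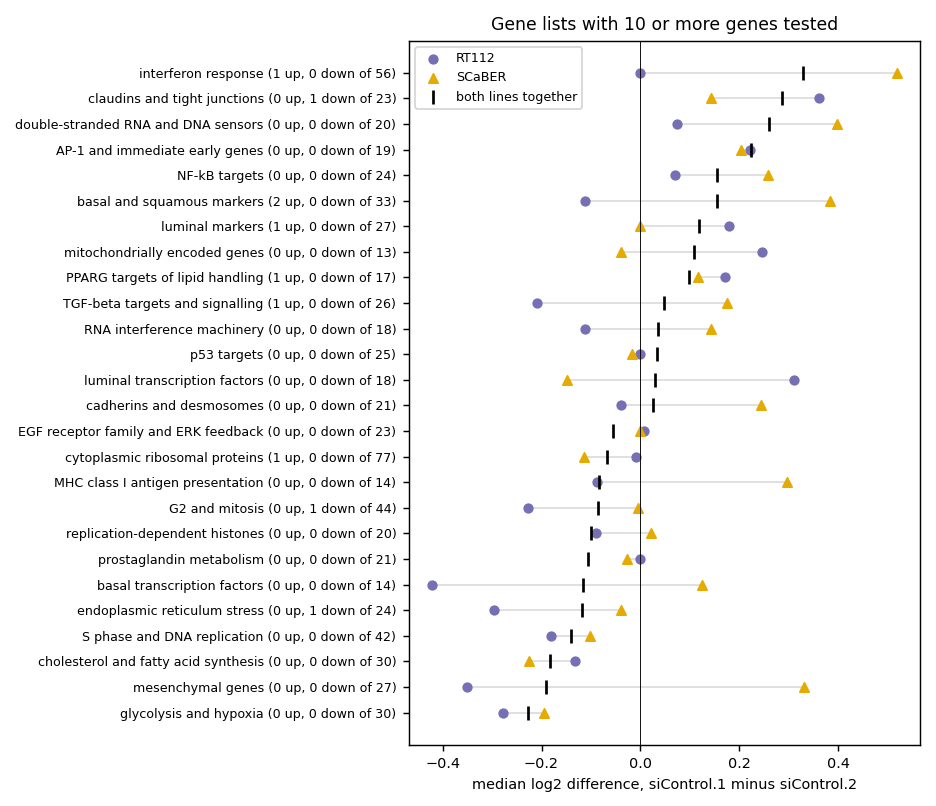
Median log2 difference (siControl.1 minus siControl.2) of the 26 gene lists with 10 or more genes tested, circles for RT112, triangles for SCaBER and bars for both lines together, with the number of members that passed in brackets. The interferon list has the highest median in SCaBER (0.52) and lies at 0.00 in RT112.

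Of 44 tested G2 and mitosis genes 1 passed, BUB3, a spindle checkpoint protein, at 154 and 138 against 254 and 269 CPM in RT112 and at 186 and 182 against 285 and 306 CPM in SCaBER (log2 difference -0.74 ± 0.11, adjusted p = 0.00447). Of the 44, 11 had an unadjusted p under 0.05 by edgeR and 3 passed by DESeq2, beside 1501 and 313 of all 14036 genes. Of 42 S phase genes and 25 p53 targets none passed by edgeR, with 5 and 3 at an unadjusted p under 0.05. Of 77 tested cytoplasmic ribosomal protein genes 1 passed. It was RPLP0, the P0 protein of the ribosomal stalk (ENSG00000089157, chromosome 12, 120196699 to 120201111), at 1618 and 1457 against 724 and 671 CPM in RT112 and at 1999.8 and 1980.2 against 1103 and 1002 CPM in SCaBER. RPLP0 was 2.07-fold higher under siControl.1 (log2 difference 1.05 ± 0.10, adjusted p = 1.13e-04), and the list median was -0.07.

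Metabolic and signalling lists also had at most 1 member. CPT1A, which admits fatty acids to mitochondria, rose by 0.75 ± 0.16 on the log2 scale (1 of 17 PPARG targets, adjusted p = 0.0484). PDIA4, a protein disulfide isomerase, was at 34.1 and 38.1 against 82.2 and 85.1 CPM in RT112 and at 42.9 and 43.5 against 93.3 and 105 CPM in SCaBER. It was the 1 of 24 endoplasmic reticulum stress genes that passed by edgeR (log2 difference -1.18 ± 0.15, adjusted p = 0.00127). Of the 24, 11 had an unadjusted p under 0.05 by edgeR and 4 passed by DESeq2, beside 1501 and 313 of all 14036 genes. In RT112 alone 2 passed, both lower under siControl.1. The summed level of the list was 3031 to 3355 against 4141 to 4334 CPM in RT112, and the ranges overlapped in SCaBER. INHBA was the 1 of 26 TGF-beta genes that passed (1.54 ± 0.30, adjusted p = 0.0263). In both lines together no member passed by edgeR among 21 prostaglandin, 30 cholesterol and fatty acid, 30 glycolysis and hypoxia, 23 EGF receptor, 19 AP-1, 24 NF-kB and 14 MHC class I genes. An unadjusted p under 0.05 was reached by 11 cholesterol and 7 AP-1 genes, and by 1 to 5 in each other list. By DESeq2 2 AP-1 genes passed, and 1 gene in each of the cholesterol, prostaglandin (CBR1) and glycolysis and hypoxia (LDHA) lists. None passed by DESeq2 in the EGF receptor, NF-kB and MHC class I lists. Of the 30 cholesterol genes 7 were higher under siControl.1. Their summed level was 3235 to 3320 against 3679 to 3850 CPM in RT112 and 3533 to 3652 against 3995 to 4268 CPM in SCaBER. Within a line, PTGES was lower under siControl.1 in SCaBER (adjusted p = 0.00237), and AREG and HMGCS1, an enzyme of cholesterol synthesis, were lower in RT112 (adjusted p = 0.00141 and 0.0459). The 13 mitochondrially encoded genes and 20 tested histones gave 0 as well, although mitochondrial transcripts took 20.7% ± 0.778 of counts in RT112 siControl.1 and 18.5% ± 0.798 in RT112 siControl.2 (SD, n = 2).

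The FOXA1 siRNA libraries, which took no part in the tests, showed on which side the 113 genes lay. In 41 of them (36.3%) both siControl.2 libraries lay outside the range of the other 6 libraries of their line, on the same side in RT112 and SCaBER, and in 32 (28.3%) both siControl.1 libraries did, with 2 genes counted under each. Over all 14036 genes these shares were 1.45% and 1.04%. The 113 had been chosen for a gap between the control siRNAs, so the higher shares are a description. Of the 32, 27 had siControl.1 as the lowest siRNA, and of the 41, 33 had siControl.2 as the lowest. Neither siRNA stood apart in the remaining 42.

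CLDN1 and MET are examples with siControl.1 lowest. CLDN1 was at 114 to 179 CPM in the RT112 and 199 to 290.2 CPM in the SCaBER libraries of the FOXA1 siRNAs, above both siControl.1 libraries of each line. MPRIP and SKAP2 are examples with siControl.2 lowest, and MPRIP was at 362 to 512 CPM in RT112 and 125 to 156 CPM in SCaBER under the FOXA1 siRNAs. HSP90AA1 and PAWR were extreme under each control siRNA, and HSP90AA1 lay at 2430.2 to 3539 CPM in RT112 under the FOXA1 siRNAs, between siControl.1 and siControl.2. S100A8 in RT112 was at 37.2 and 32.3 CPM under siFOXA1.1 and at 259 and 306 CPM under siFOXA1.2, so the siFOXA1.1 level was like siControl.2 and the siFOXA1.2 level like siControl.1. PSCA in RT112 was at 16.1 to 35.1 CPM under the FOXA1 siRNAs, under both control siRNAs.

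**Figure D5:**
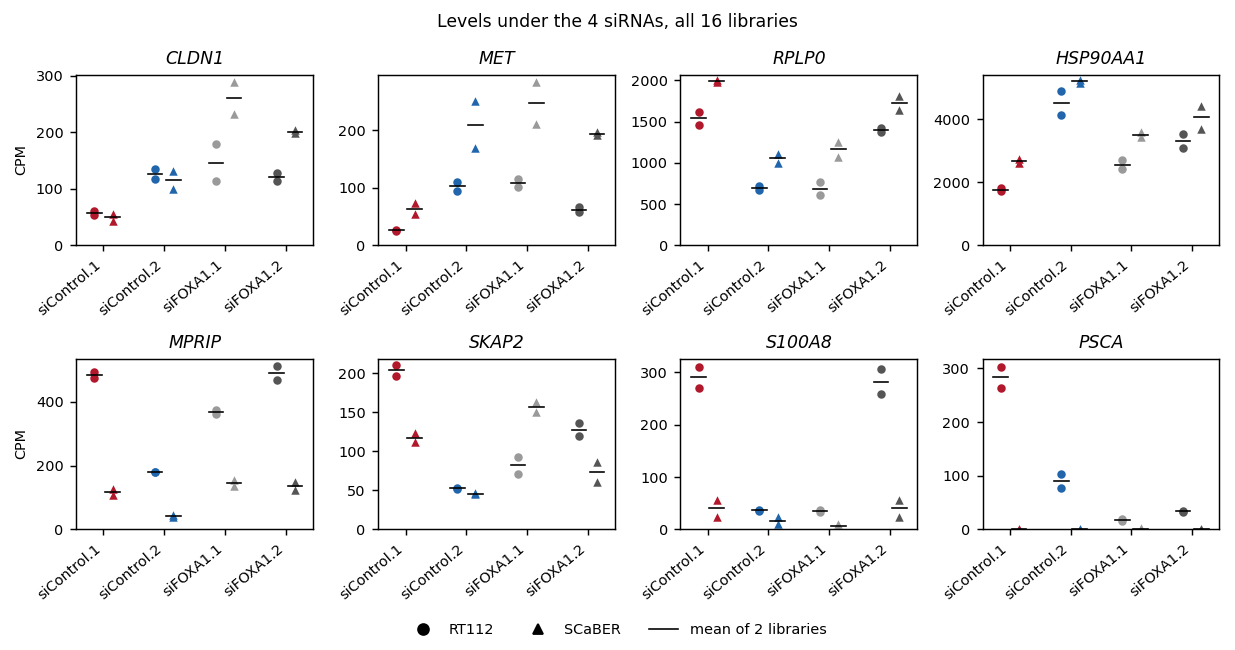
CPM under each of the 4 siRNAs for 8 genes, 1 point per library (circles RT112, triangles SCaBER) with bars at the mean of 2 libraries and each vertical axis from 0. CLDN1 and MET are lowest under siControl.1, MPRIP and SKAP2 are lowest under siControl.2, and HSP90AA1 is lowest under siControl.1 and highest under siControl.2.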

How the data were processed

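The 3′ ends of mRNA were sequenced. The authors deposited raw counts per gene and a TPM table for 58721 genes. The deposited configuration names TrimGalore 0.6.2 (minimum quality 20, minimum length 10), STAR 2.6.1a, hg38 and GENCODE 29, whereas the study's methods name hg19. Gene positions printed are from RefSeq on GRCh38.p14 and were matched by symbol.

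Groups came from the siRNA and cell line labels. Counts were tested with edgeR 4.0.16 (R 4.3.3): filterByExpr on the 4 groups, TMM, a quasi-likelihood F test with cell line as covariate (5 residual degrees of freedom), and Benjamini-Hochberg adjustment over 14036 genes. The within-line contrasts and their difference came from 1 fit of 4 group means. Differences are siControl.1 minus siControl.2, values after ± are standard errors unless marked SD, and CPM are counts over the library total. The test was checked on simulated counts. In both lines together it recovered 14% of 1.5-fold, 44% of 2-fold, 62% of 3-fold and 78% of 4-fold changes, with 50 genes each. A gene that did not pass may therefore still differ.

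The labels call the replicate number an experiment batch, so numbers pair libraries. Deviations of same-numbered libraries correlated at 0.0132 in RT112 and 0.0629 in SCaBER over 6794 genes. Floors cover counting error only, and standard errors include the spread between libraries.

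Alternatives were library totals, no filter, no mitochondrial genes, DESeq2 1.42.0, limma 3.58.1 on the deposited TPM (log2, pseudocount 1), a replicate block, all 16 libraries, single batches, single lines and leaving out each library. The members and gene lists were chosen with earlier results of these data known. Named genes were PSCA, HPGD, CLDN1 and FOXA1. To these came the 15 largest rises and falls that passed, with a mean of at least 20 counts and 1 sign in all 4 pairs, the 3 largest per line and direction, the 5 smallest interaction p-values and up to 4 members per list. HSP90AA1, YBX1, YBX3, STMN1, SEMA6A, STAT2, the other list members named and the further interaction genes were chosen after their values were seen. A gene that passed in the interaction is not reported here.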

Additional observations from a re-analysis of the deposited data

Results flagged for a closer look

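In 17 genes, of which 16 are given, the difference between the control siRNAs differed between the lines by the interaction test (edgeR, adjusted p in brackets, log2 difference in RT112 minus that in SCaBER). SLC16A1 gave -4.26, PMEPA1 -2.18, KRT6A -2.97 and ZBED2 -3.45 (each 0.0196). MYL9 gave -2.58 and MYCL 5.71 (each 0.0280). KRT19 gave -4.37, THBS1 -2.02, PTGES 1.46 and CLIC3 4.08 (each 0.0285). REEP6 gave 3.52 and ST3GAL1 3.41 (each 0.0315). HEG1 gave -1.69 and AREG -2.29 (each 0.0401), and ZMYND8 -1.42 and CAV1 -1.26 (each 0.0493). The terms of SLC16A1, MYCL, KRT19 and ST3GAL1, among others, depend on arms near 0 counts.

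In 4 of 94 groups of 4 libraries tested, for named genes that passed, 1 library lay far from the other 3 by Dixon's test, which chance gives in about 1 of 20 groups. On a log2 CPM scale centred on each line, SCaBER siControl.1 replicate 2 was that library for LAD1, at 0.264, and for CCND3, at -1.85. RT112 siControl.2 replicate 1 was at 0.781 for HSP90AA1, and SCaBER siControl.2 replicate 2 was at -0.122 for YWHAZ.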

How the results depend on the processing

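The counts of genes that passed in both lines, RT112, SCaBER and the interaction were 113, 101, 48 and 17. They stayed within 1.5 times with library totals, without mitochondrial genes and with all 16 libraries in the fit (161 in both lines). With no filter they were 320, 350, 244 and 174, and with DESeq2 313, 285, 173 and 82. With the replicate block they were 135, 159, 80 and 37, of which 108 of the 135 and all 101 RT112 genes were shared. In both lines limma on log2(TPM + 1) gave 48, batch 1 alone 48, batch 2 alone 0 and the mean of the lines in the 4-group fit, added after seeing the data, 183. Each line fitted alone gave 408 (RT112) and 19 (SCaBER). Without 1 library at a time the counts ran from 71 to 219, 54 to 369, 33 to 489 and 22 to 333. These fits tested 15360 to 15463 genes, and the cause of the shifts was not tested.

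Among the named genes, 16 values in 8 genes changed sign over both lines, and 0 of the 8 had passed. Leaving out 1 library gave -0.761 to 0.0121 for KRT6A, -0.692 to 0.0432 for FOXA1, -0.397 to 0.798 for ZBED2, -0.14 to 0.596 for LAPTM5 and -0.127 to 0.809 for LUM. HPGD was -0.131 and EGFL7 -0.189 with all 16 libraries, and -0.133 and -0.190 in the 4-group mean. EGFL7 was -0.364 and HIST2H2AC 0.0720 in batch 1. CPT1A passed in 6 of 18 alternatives, SLC36A1 in 8, PSCA, MX2 and KRT6B in 11, and CLDN1, MET, MPRIP, RPLP0 and HSP90AA1 in 17, with batch 2 alone the exception. The adjusted p of PSCA ranged from 6.75e-11 to 0.400. A difference within the floor of 3 counts was not detectable at this depth.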

Other observations

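Transcripts in common use as references for quantitative PCR were looked up after the values were seen, so their counts are a description without a test of the list. Of 17 such genes, 2 were higher and 1 was lower under siControl.1 at an adjusted p under 0.05, beside 0.805% of all genes. RPLP0 was 2.07-fold and YWHAZ 1.56-fold higher, and HSP90AB1 was 1.38-fold lower. YWHAZ, a 14-3-3 protein, was at 823 and 914 against 527 and 528 CPM in RT112 and at 829 and 880.0 against 543 and 658 CPM in SCaBER (adjusted p = 0.00962). ACTB, GAPDH and PPIA had log2 differences of 0.03, 0.03 and -0.03, with standard errors of 0.09, 0.12 and 0.10. RPL13A and RPS18 had differences of -0.01 and -0.04.

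Among heat shock proteins and their co-chaperones, also looked up afterwards, the genes that passed went both ways. Of 21 tested, 2 passed as lower, HSP90AA1 and HSP90AB1 (adjusted p = 5.77e-05 and 0.0263), and 2 as higher, HSPB1 and ST13. Most of the 21 had a negative log2 difference, and the list median was -0.18, beside -0.00497 over all genes. The share that passed over all genes was 0.805%, and the counts of this list too are a description. HSPB1, a small heat shock protein, was at 1294 and 1037 against 622 and 414 CPM in RT112 and at 996 and 539 against 408 and 288 CPM in SCaBER (log2 difference 1.18 ± 0.19, adjusted p = 0.00741). ST13, which binds HSP70, rose by 0.77 ± 0.12 (adjusted p = 0.00430). HSPA8, DNAJB1 and HSPD1 had differences of 0.13, -0.18 and -0.12 and did not pass.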
